A study of Mus musculus with 9 samples.

Results

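The genes described are a polyubiquitin gene, *Ubb*, and 7 genes for proteins that bind ubiquitin chains and carry their cargo to the proteasome, to the unfolding enzyme p97 or to autophagosomes: *Sqstm1*, *Rad23b*, *Ubqln1*, *Ubqln2*, *Ubqln4*, *Nploc4* and *Nsfl1c*. They were chosen by symbol, with earlier results of these data known. The shares over all genes set beside their counts below are therefore a description and no test. All 8 are listed in each of the 3 deposited tables. The one with LacZ and Nrf1 lists 14819 genes, the one with LacZ and Nrf2 lists 14986 and the one for both factors lists 14908. All 8 also passed the filter on low counts and are among the 11592 genes tested. Their recovered reads per library ran from 690 to 14013.

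RNA was sequenced from NRVMs, ventricular heart muscle cells isolated from Sprague-Dawley rats aged 1 or 2 days and plated 48 h before infection. An adenovirus carrying LacZ (a bacterial enzyme, the control), Nrf1 or Nrf2 was added at an MOI of 50 to each of the 3 groups, with 3 libraries per group. The transgenes, that of Nrf2 being the mouse sequence, stood behind a CMV promoter in a vector that also encodes a red fluorescent protein, so every group carried the virus and the fluorescent protein, and expression was not restricted to cardiomyocytes. The repository labels the organism as mouse, whereas the strain, the cells and the alignment are those of rat. Each table gives the authors' mean of normalized reads for a pair of groups. Whole reads of each library were recovered from these means, 7874370 to 9347096 for LacZ, 8533142 to 10274928 for Nrf1 and 10149164 to 11905027 for Nrf2. Libraries are named by depth (deepest, middle, shallowest), since the means carry no replicate number. Nothing in the labels says that the 3 libraries of a group came from separate cultures, so the p-values measure the spread between these libraries, which may be technical.

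Ubiquitin is attached to proteins through the sequential work of E1, E2 and E3 enzymes, and chains of it mark a protein for breakdown. Shuttle factors with a ubiquitin-like domain at one end and a ubiquitin-binding domain at the other, such as Rad23b and the ubiquilins, bring such proteins to the 26S proteasome. The ATPase p97 pulls ubiquitinated proteins out of membranes and complexes with the help of cofactors, among them Npl4 (encoded by *Nploc4*) and p47 (encoded by *Nsfl1c*), while p62 (encoded by *Sqstm1*) links ubiquitinated cargo to the autophagosome. Nrf1 and Nrf2 are related transcription factors, known respectively for control of proteasome genes and of antioxidant genes.

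The *Nfe2l2* gene, which encodes Nrf2, had an authors' mean of 3475 in LacZ and 75066 in Nrf2 samples, higher in the samples labelled Nrf2. The reads of the transgene and of the cells' own gene cannot be told apart there. Values of the gene that encodes Nrf1 were not analysed here, so its overexpression was not checked.

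*Sqstm1* had the highest ratio to LacZ of the 8 genes with each factor. Its normalized reads were 4768, 4822 and 4975 in the LacZ libraries (4855 ± 107, SD, n = 3), 9366, 9658 and 9926 in the Nrf1 libraries (9650 ± 280) and 11610, 12126 and 11228 in the Nrf2 libraries (11655 ± 451), each from the deepest to the shallowest library. The groups did not overlap and stood in the order LacZ, Nrf1, Nrf2. In the authors' means, the ratio to LacZ was 1.98 with Nrf1 and 2.40 with Nrf2. By limma-voom, the log2 fold change was 0.99 (SE 0.034, adjusted p = 1.23e-14) with Nrf1 and 1.26 (SE 0.033, adjusted p = 3.82e-16) with Nrf2. The direct comparison gave 0.27 for Nrf2 over Nrf1 (SE 0.030, adjusted p = 3.61e-07), and *Sqstm1* was the one gene of the 8 that was higher with Nrf2 than with Nrf1 at an adjusted p under 0.05. With Nrf1 its ratio to LacZ was close to that of *Nsfl1c* (1.98 and 1.97). By limma-voom, *Nsfl1c* was the higher without the deepest LacZ, shallowest LacZ or shallowest Nrf1 library. *Sqstm1* was the higher without the middle LacZ or middle Nrf1 library, and both were at 1.02 without the deepest Nrf1 library.

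**Figure D1:**
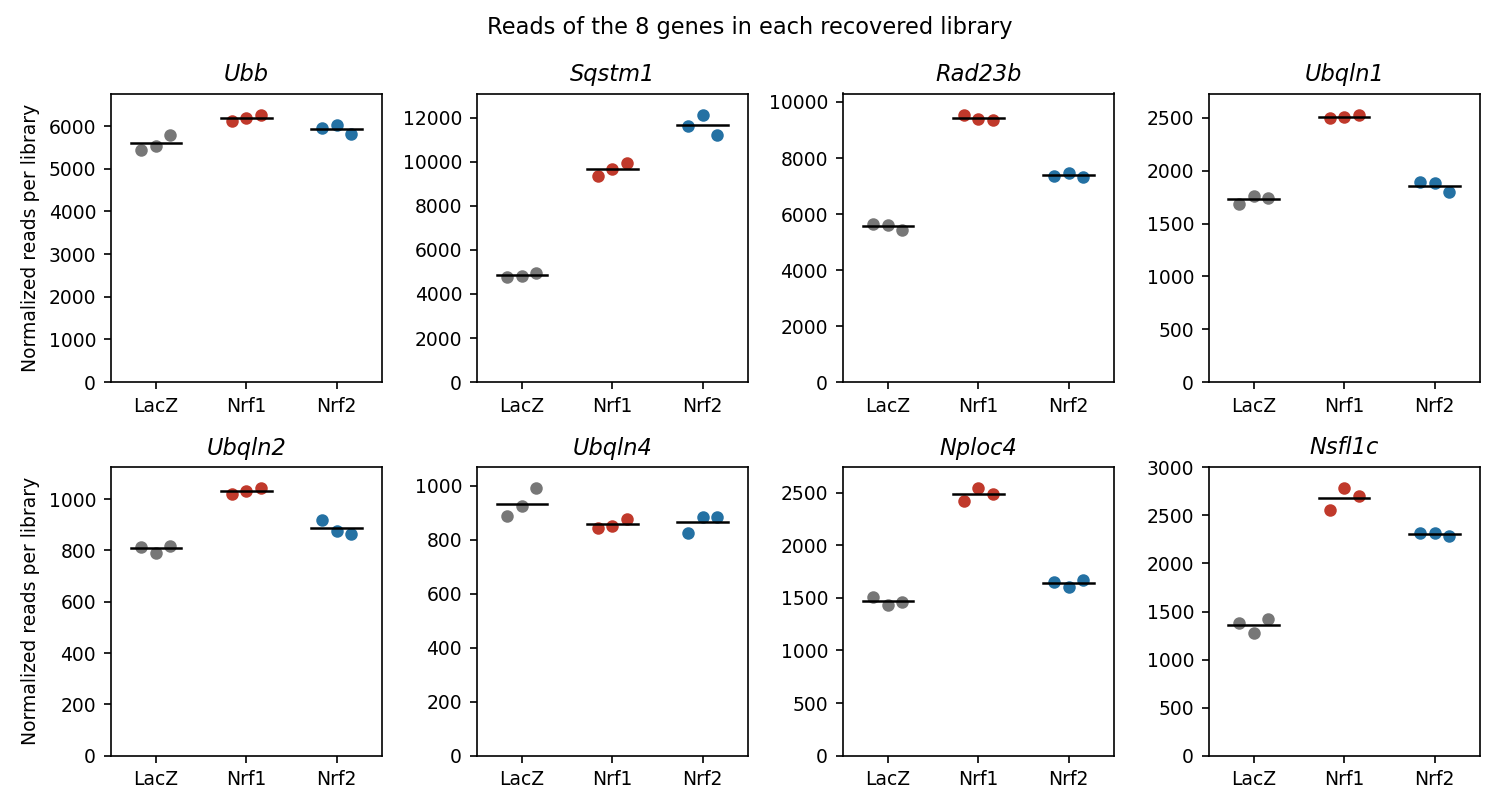
Normalized reads of the 8 genes in each recovered library (vertical axes, each from 0; points, 3 libraries per group from the deepest on the left to the shallowest on the right; lines, group means). The Nrf1 libraries of *Ubb*, *Rad23b*, *Ubqln1*, *Ubqln2*, *Nploc4* and *Nsfl1c* sit above all others. The libraries of *Sqstm1* are highest with Nrf2, and *Ubb* and *Ubqln4* differ little between groups.

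The p97 cofactor genes differed from each other in how they stood with Nrf2. For *Nploc4*, the LacZ libraries held 1506, 1436 and 1464 normalized reads (1468 ± 35.1, SD, n = 3), the Nrf1 libraries 2421, 2541 and 2488 (2483 ± 60.0) and the Nrf2 libraries 1655, 1605 and 1669 (1643 ± 33.5). All Nrf1 libraries were above all Nrf2 libraries, which lay closer to LacZ but did not overlap with it. The ratio of the authors' means was 1.69 for Nrf1 over LacZ and 1.12 for Nrf2 over LacZ. Nrf2 samples were at 0.66 of the level in Nrf1 samples (log2 fold change by limma-voom -0.60, SE 0.035, adjusted p = 6.51e-11).

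*Nsfl1c*, which encodes a p97 adaptor known for its part in Golgi reassembly, rose with both factors. Its libraries held 1382, 1274 and 1426 normalized reads with LacZ (1361 ± 78.1, SD, n = 3), 2556, 2781 and 2701 with Nrf1 (2679 ± 114) and 2313, 2320 and 2287 with Nrf2 (2307 ± 17.6). Here the Nrf2 libraries stood nearer to the Nrf1 libraries than to LacZ. The log2 fold change by limma-voom was 0.98 with Nrf1 (SE 0.044, adjusted p = 5.09e-13) and 0.76 with Nrf2 (SE 0.044, adjusted p = 3.39e-11). Between the factors it was -0.21 for Nrf2 over Nrf1 (SE 0.039, adjusted p = 1.41e-04).

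*Rad23b*, a shuttle factor that also partners a DNA damage sensor in nucleotide excision repair, rose with both factors and more with Nrf1. The LacZ libraries held 5634, 5626 and 5442 normalized reads (5567 ± 109, SD, n = 3), the Nrf1 libraries 9539, 9393 and 9354 (9429 ± 97.8) and the Nrf2 libraries 7359, 7469 and 7308 (7379 ± 82.3). The 3 groups were apart, with Nrf2 between the others. The authors' means were 1.69 times LacZ with Nrf1 and 1.33 times LacZ with Nrf2. By limma-voom, the log2 fold change for Nrf2 over Nrf1 was -0.35 (SE 0.025, adjusted p = 9.48e-10).

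The ubiquilin genes, for shuttle factors that also bind hydrophobic stretches of misplaced proteins, did not move alike. *Ubqln1* had 1689 to 1763 normalized reads in the LacZ libraries, 2497 to 2528 with Nrf1 and 1798 to 1892 with Nrf2, so that Nrf1 stood apart and Nrf2 lay just above LacZ. Its log2 fold change was 0.54 with Nrf1 (SE 0.035, limma-voom adjusted p = 1.44e-10) and 0.10 with Nrf2 (SE 0.036, adjusted p = 0.0193). *Ubqln2* had 791 to 818 normalized reads with LacZ, 1021 to 1042 with Nrf1 and 864 to 917 with Nrf2. Nrf1 was again the highest group, with a log2 fold change of 0.35 (SE 0.044, limma-voom adjusted p = 1.00e-06), against 0.13 with Nrf2 (SE 0.044, adjusted p = 0.0140). Scaled by total reads, the values with Nrf2 were 0.02 for *Ubqln1* and 0.05 for *Ubqln2*, and neither passed (adjusted p = 0.659 and 0.341). *Ubqln4* was the gene of the 8 with a ratio to LacZ under 1 with each factor: 886 to 990 normalized reads with LacZ, 842 to 878 with Nrf1 and 825 to 885 with Nrf2. The Nrf1 and Nrf2 libraries of *Ubqln4* overlapped, and the gaps to the lowest LacZ library were small. Its log2 fold change of -0.12 with Nrf1 passed at an adjusted p of 0.0424 by limma-voom and that of -0.11 with Nrf2 did not (adjusted p = 0.0670). Without the shallowest LacZ library, whose 990 normalized reads were the highest of all, the value with Nrf1 was -0.08 (adjusted p = 0.205) and that with Nrf2 -0.07 (adjusted p = 0.273). Leaving out the deepest, middle or shallowest Nrf1 library also ended the call with Nrf1, at values of -0.10, -0.11 and -0.13 (adjusted p = 0.139, 0.104 and 0.0515). A fit with no filter ended it at -0.12 (adjusted p = 0.0523). Of these fits, the one without the shallowest LacZ library moved the value with Nrf1 the most, from -0.12 to -0.08. Leaving out the deepest LacZ library brought the value with Nrf2 past the threshold (-0.15, adjusted p = 0.0208). Scaling by total reads or by the 75th percentile moved the value with Nrf1 to -0.19 in both cases (adjusted p = 0.00343 and 0.00207).

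*Ubb* encodes a chain of ubiquitin repeats joined head to tail. Its normalized reads were 5441, 5537 and 5797 with LacZ (5592 ± 184, SD, n = 3), 6118, 6188 and 6261 with Nrf1 (6189 ± 71.9) and 5949, 6035 and 5811 with Nrf2 (5932 ± 113). The groups were close, with the shallowest LacZ library just under the lowest Nrf2 library. By limma-voom, the log2 fold change was 0.15 with Nrf1 (SE 0.030, adjusted p = 2.75e-04) and 0.09 with Nrf2 (SE 0.030, adjusted p = 0.0183). The value with Nrf1 was 0.08 when scaled by total reads and 0.07 by the 75th percentile (adjusted p = 0.0202 and 0.0363). The value with Nrf2 was 0.0026 when scaled by total reads and 0.06 by the 75th percentile, and neither passed (adjusted p = 0.945 and 0.0851). The difference between the factors, -0.06, did not pass (adjusted p = 0.0873), although it did with scaling by total reads (adjusted p = 0.0240) and in a fit of these groups alone (adjusted p = 0.0163), and with scaling by the 75th percentile it was -0.01 (adjusted p = 0.738). The ubiquitin repeats of *Ubb* are nearly the same in other ubiquitin genes, so its reads may have been split among these genes or left uncounted.

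In the comparison of Nrf1 with LacZ, which asks what Nrf1 does to transcripts of these cells, 4 of the 8 genes had authors' means more than 1.5 times those of LacZ (*Sqstm1*, *Nsfl1c*, *Rad23b* and *Nploc4*), against 15.0% of all genes of that table, and 0 were lower by that fold, against 24.3%. When genes whose means were all under 100 were left out, and all 8 lie above that, these shares were 11.6% and 11.9%. By limma-voom at an adjusted p under 0.05, 7 of the 8 rose and *Ubqln4* fell, against 34.5% and 32.2% of the genes tested. The libraries of the groups did not overlap for any of the 8, with 7 higher and 1 lower, against 35.9% and 33.7% of the genes tested. Their median log2 fold change was 0.65, against 0.01 over all genes tested. *Ubqln1* lay just under the 1.5-fold threshold, with a ratio of 1.45.

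With Nrf2, 2 of the 8 genes had authors' means above 1.5 times LacZ (*Sqstm1* and *Nsfl1c*), against 15.6% of all genes of that table, and 0 were lower by that fold, against 15.5%, or 7.67% and 6.65% without the genes whose means were under 100. By limma-voom, 7 rose and 0 fell at an adjusted p under 0.05, against 29.1% and 27.2% of the genes tested, and at an unadjusted p under 0.05 *Ubqln4* was lower as well. In the libraries, 7 were higher and 1 lower without overlap, against 31.4% and 29.8%. The median log2 fold change was 0.15, against 0.00 over all genes tested, and when scaled by total reads 0.06, against -0.09. *Sqstm1*, *Nsfl1c* and *Rad23b* stood well above that median, and the values of *Nploc4*, *Ubqln2*, *Ubqln1* and *Ubb* were 0.16, 0.13, 0.10 and 0.09. With libraries scaled by total reads, these 4 genes were at 0.08, 0.05, 0.02 and 0.0026 and their calls were lost (adjusted p = 0.0819, 0.341, 0.659 and 0.945). Under that scaling *Ubqln4* fell (-0.19, adjusted p = 0.00258). Scaling by the 75th percentile ended those of *Ubqln1* and *Ubb* (adjusted p = 0.0682 and 0.0851), and *Ubqln4* fell (-0.13, adjusted p = 0.0235). Over all genes, scaling by total reads moved the share of higher genes among the calls from 51.7% to 38.2%. Leaving out the deepest Nrf2 library ended the calls of *Ubqln2*, *Ubqln1* and *Ubb* (adjusted p = 0.0710, 0.0759 and 0.0521), and the calls of *Ubqln1* and *Ubb* were also lost without the middle Nrf2 library (adjusted p = 0.0619 and 0.0735) or the deepest LacZ library (adjusted p = 0.0856 and 0.0933). Both comparisons with LacZ use the same LacZ libraries, so neither is independent of the other.

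The factors were compared directly in the table for Nrf1 and Nrf2. By limma-voom, 5 of the 8 genes were lower with Nrf2 than with Nrf1 (*Nploc4*, *Ubqln1*, *Rad23b*, *Ubqln2* and *Nsfl1c*), against 27.7% of the genes tested, and *Sqstm1* was higher, against 27.4%. In the authors' means, *Nploc4* was below 1/1.5 of the Nrf1 level, against 8.72% of all genes of that table, and 0 of the 8 were above 1.5, against 20.1%. Without the genes whose means were under 100, these shares were 4.24% and 7.50%. After re-centring on the median gene, *Nploc4* no longer passed that fold. The libraries did not overlap for 6 lower genes and 1 higher gene, against 31.6% and 31.3% of the genes tested, and *Ubqln4* overlapped. *Ubqln1* was at 0.74 of the Nrf1 level, *Rad23b* at 0.78, and *Ubqln2* and *Nsfl1c* both at 0.86.

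**Figure D2:**
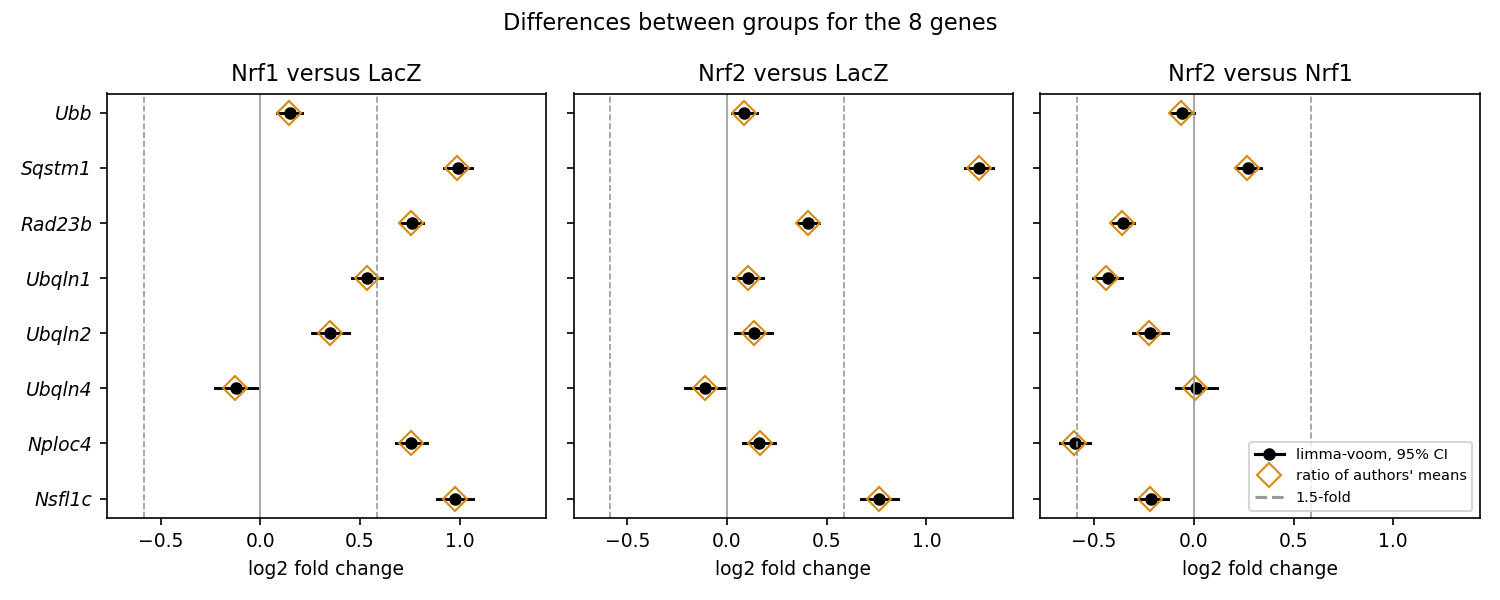
Differences between groups on the log2 scale (horizontal axes) for the 8 genes in the 3 comparisons. Filled points are limma-voom log2 fold changes with 95% confidence intervals, open diamonds are ratios of the authors' group means, and dashed lines mark 1.5-fold. *Sqstm1* is the gene to the right of 0 in all 3 panels with an interval that leaves out 0.

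The 8 genes together took 2355, 2404 and 2427 CPM in the LacZ libraries, 3532, 3575 and 3605 in the Nrf1 libraries, and 3297, 3357 and 3220 in the Nrf2 libraries. The sum was thus higher in every library of either factor than in LacZ. *Sqstm1* made up 21.55% to 21.96% of it with LacZ, 27.26% to 28.22% with Nrf1 and 35.25% to 36.52% with Nrf2. Between libraries of one group the 8 genes varied little, with coefficients of variation from 0.65% for *Ubqln1* with Nrf1 to 5.74% for *Nsfl1c* with LacZ.

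Among other genes of ubiquitin itself and of the E1 step, which activates it, *Uba6*, an E1 enzyme gene, had the highest ratio with Nrf1 (log2 ratio of the authors' means 0.75, limma-voom adjusted p = 9.55e-12). *Rps27a*, a fusion of ubiquitin and a ribosomal protein, had the highest with Nrf2 (0.56, adjusted p = 1.49e-04). Like *Ubb*, it holds a near-identical ubiquitin repeat, and its values are uncertain for that reason.

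Among the other shuttle factors and proteasome-associated proteins, 9 of 12 listed genes were tested, and 5 rose and 2 fell with Nrf1, while 4 rose and 3 fell with Nrf2 (3 and 3 when scaled by total reads). For this and the lists below, the shares over all genes tested were 34.5% higher and 32.2% lower with Nrf1. With Nrf2 these shares were 29.1% and 27.2%, and for Nrf2 over Nrf1 27.4% and 27.7%. *Zfand2a*, a zinc finger gene induced by arsenite, had the highest ratio with each factor, 2.53 with Nrf1 and 2.28 with Nrf2 (limma-voom adjusted p = 1.48e-14 and 1.19e-13). The lowest were *Zfand2b* with Nrf1 (log2 ratio -0.29, adjusted p = 0.0222) and *Nub1* with Nrf2 (-0.27, adjusted p = 1.47e-04).

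The receptors for ubiquitin in the proteasome, *Psmd2*, *Psmd4* and *Adrm1*, all rose with Nrf1, and each was above 1.5-fold. Their ratios of the authors' means were 2.38, 1.70 and 1.83. With Nrf2 the 3 genes rose by less, with log2 fold changes of 0.25, 0.11 and 0.15 (limma-voom adjusted p = 6.61e-07, 0.0159 and 0.00308), and all 3 were lower with Nrf2 than with Nrf1. With scaling by total reads, 1 of the 3 still rose with Nrf2, and by the 75th percentile 2 did. As a reference within the proteasome, all 7 genes of the 20S alpha ring rose with Nrf1 (median log2 fold change 1.09) and with Nrf2 (0.48), and all 6 genes of the 19S ATPase ring rose with each as well (1.12 and 0.33). With Nrf2, scaling by total reads left 6 of 7 and 5 of 6 genes called, and the 75th percentile 6 of 7 and 6 of 6. Every gene of both rings was lower with Nrf2 than with Nrf1, with medians of -0.77 for the alpha ring and -0.67 for the ATPase ring. *Psma5* was the highest and *Psma6* the lowest of the alpha ring with Nrf1, at log2 ratios of 1.65 and 0.88, and *Psmc5* and *Psmc3* of the ATPase ring, at 1.38 and 0.83.

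Of 21 listed genes for p97 and its other cofactors, 19 were tested, of which 15 rose and 1 fell with Nrf1 (median log2 fold change 0.65) and 9 rose and 1 fell with Nrf2 (0.34). *Vcp*, which encodes p97, rose with Nrf1 (ratio 1.95, limma-voom adjusted p = 1.78e-16) and was 1.53 times LacZ with Nrf2 (adjusted p = 1.69e-13). *Ufd1l*, whose product forms a pair with Npl4, rose with Nrf1 (1.93, adjusted p = 2.10e-13), while its ratio of 1.07 with Nrf2 did not pass (adjusted p = 0.0764). The 2 genes of that pair, *Nploc4* and *Ufd1l*, were thus both lower with Nrf2 than with Nrf1. *Ubxn2a* had the highest ratio with Nrf1 (2.65, adjusted p = 4.66e-12) and *Ubxn8* with Nrf2 (2.05, adjusted p = 1.35e-09). *Plaa*, for a p97 partner that binds ubiquitin, rose with both (2.00 and 1.66), and *Ubxn2b* had the lowest ratio with both (log2 ratios -0.56 and -0.43, adjusted p = 8.03e-04 and 0.00612). In the direct comparison, 14 of the 19 were lower with Nrf2 and 1, *Ubxn8*, was higher.

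For comparison with *Sqstm1*, 10 of 12 listed genes for other autophagy receptors and Atg8 proteins were tested. With Nrf1, 5 rose and 2 fell, and with Nrf2, 5 rose and 2 fell. Under scaling by total reads and by the 75th percentile, 5 rose with Nrf1 while 4 and 5 fell. *Gabarapl1* had the highest ratio of the tested genes with each factor, 2.10 and 1.98 (limma-voom adjusted p = 1.96e-13 and 1.04e-12). *Gabarapl2* followed at 1.80 and 1.68. *Tax1bp1*, for a receptor that binds ubiquitin, was 1.16 times LacZ with Nrf1 and 1.56 times with Nrf2 (adjusted p = 3.10e-06 and 1.08e-12), and higher with Nrf2 than with Nrf1 (log2 ratio 0.42, adjusted p = 4.40e-10). The lowest were *Tollip* with Nrf1 (log2 ratio -0.21, adjusted p = 0.00161) and *Wdfy3* with Nrf2 (-0.22, adjusted p = 4.26e-05). In the direct comparison, 3 genes were higher with Nrf2 and 1 was lower, against 2 and 3 with scaling by total reads and 5 and 1 with scaling by the 75th percentile.

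Of 23 E2 enzyme genes tested, 11 rose and 7 fell with Nrf1, against 34.5% and 32.2% of all genes tested. With Nrf2, 10 rose and 5 fell, against 29.1% and 27.2%. The medians of the E2 genes were 0.13 and 0.10. Scaled by total reads, the counts were 7 and 7 with Nrf1 and 6 and 7 with Nrf2, with medians of 0.06 and 0.02, and by the 75th percentile they were 7 and 7 and 9 and 6. *Cdc34*, an E2 of cell cycle ubiquitin ligases, rose with Nrf1 and with Nrf2 (log2 ratios 1.10 and 0.85, limma-voom adjusted p = 9.73e-13 and 8.65e-11). *Ube2e2* fell with Nrf1 and rose with Nrf2 (-0.33 and 0.79, adjusted p = 0.00445 and 7.07e-08), and *Ube2c*, an E2 of the anaphase-promoting complex, was the lowest with each factor (-0.73 and -0.67, adjusted p = 1.43e-05 and 2.69e-05). The highest ratio with Nrf2 was that of *Ube2b*, but its normalized reads in the Nrf2 libraries were 333, 0 and 88.7, so 1 library set the mean and the test did not pass (adjusted p = 0.710). Of 15 cytosolic chaperone genes, 6 rose and 3 fell with Nrf1 and 7 rose and 1 fell with Nrf2. With Nrf1 these were 4 and 4 when scaled by total reads or by the 75th percentile, and with Nrf2 7 and 3 when scaled by total reads. *Hspb1* was the highest with each (log2 ratios 0.83 and 0.83, adjusted p = 8.29e-11 and 1.51e-10). *Hsph1* was the lowest with Nrf1 (-0.46, adjusted p = 2.69e-09) and *Hsf1* with Nrf2 (-0.33, adjusted p = 5.84e-04). *Hsp90aa1* was uneven in every group, at 35.2, 40.4 and 722 normalized reads with LacZ, 333, 41.9 and 301 with Nrf1, and 365, 497 and 40.9 with Nrf2.

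**Figure D3:**
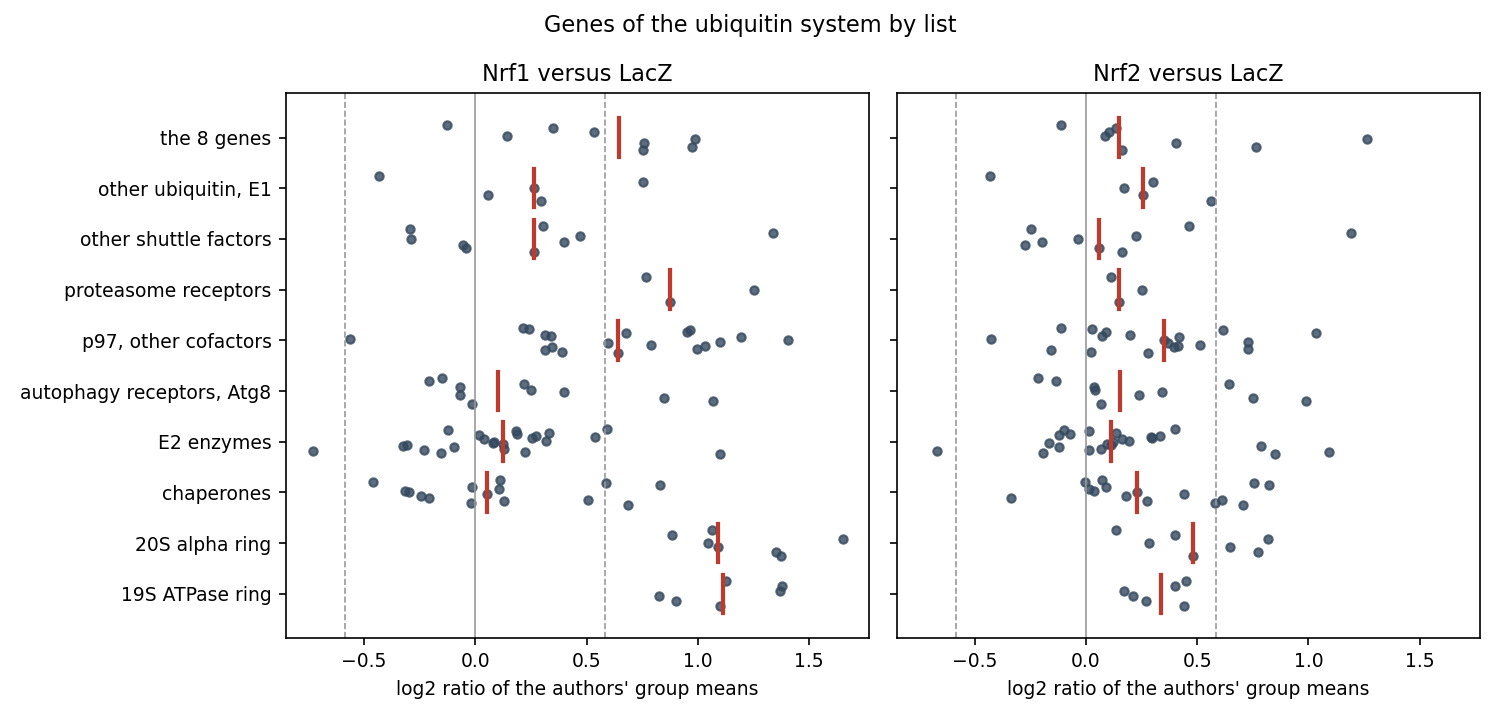
Log2 ratios of the authors' group means (horizontal axes) for the tested genes of each list, with Nrf1 on the left and Nrf2 on the right; each point is 1 gene, red lines are list medians and dashed lines mark 1.5-fold. The 20S alpha ring and 19S ATPase ring lie to the right of 1.5-fold with Nrf1, and most of their genes lie left of it with Nrf2.

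The genes most like a member in the pair of log2 ratios to LacZ were sought among 8761 others with a mean of at least 100 in some group. Nearest to *Sqstm1* were *Clic2*, *Hecw2*, *Rhpn2*, *Tst* and *Unc13b*, at distances of 0.09 to 0.12. Nearest to *Nsfl1c* were *Keap1*, *Rnh1*, *Pgam1*, *Plaa* and *Napepld* (0.03 to 0.04), with *Plaa* also a partner of p97. *Rad23b* lay closest to *Cbr4*, *Hddc2*, *Mrpl34* and *Ppil3* (0.01 to 0.03). *Nploc4* lay closest to *Loh12cr1*, *Tmem101*, *Rbm28*, *Rrnad1* and *Ciao1* (0.01 to 0.03). These distances rest on 2 ratios that share the LacZ means and describe likeness only.

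Markers of other cell types moved with the groups. Of 12 fibroblast markers tested, 12 fell with Nrf1 and 11 with Nrf2 by limma-voom, and their summed normalized reads were 142536, 147701 and 142947 in the LacZ libraries, 47048, 48279 and 45713 with Nrf1, and 84618, 78802 and 82632 with Nrf2. The gene with the most reads was *Col1a1* in each group. Of 11 leukocyte markers tested, 10 fell and 1 rose with Nrf1 and 10 fell with Nrf2, with sums of 1936, 2824 and 2026 with LacZ, 1113, 1148 and 1130 with Nrf1, and 1056, 1164 and 1150 with Nrf2, and the gene with the most reads was *Lyz2* with LacZ and *Csf1r*, the one that rose with Nrf1 (limma-voom adjusted p = 0.00243), with each factor. The middle LacZ library thus held the most leukocyte marker reads. Of 8 endothelial markers, 6 fell with each factor and 1, *Egfl7*, rose with Nrf2 (log2 ratio 0.81, limma-voom adjusted p = 1.15e-04). Their sums went from of 1435, 1476 and 1473 with LacZ to 1139, 1039 and 1147 with Nrf1 and 1157, 1011 and 1248 with Nrf2, and the most reads were those of *Kdr* with LacZ and Nrf1 and of *Tek* with Nrf2. Of 6 smooth muscle markers, 3 rose and 3 fell with Nrf1, and 3 rose and 1 fell with Nrf2. Their sums were 41367, 34401 and 38126 with LacZ, 61919, 61601 and 61105 with Nrf1, and 49030, 50055 and 52275 with Nrf2, with most reads from *Acta2* in each group. Scaling by total reads or by the 75th percentile left 2 that rose and 3 that fell with Nrf1. The log2 ratios with Nrf1 were 0.84 for *Acta2*, 0.83 for *Tagln* and 0.11 for *Cnn1*. Those of *Myh11*, *Rgs5* and *Cspg4* were -1.01, -1.89 and -0.13. The authors also use *Acta2* as a marker of a cardiomyocyte population of the neonatal mouse heart.

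The label of the cells was checked against cardiomyocyte markers, and 12 of 13 listed were found with reads in each group. Of these 12, 2 rose and 8 fell with Nrf1, and 7 rose and 3 fell with Nrf2, with sums of 213304, 183422 and 197725 in the LacZ libraries, 179462, 179169 and 181256 with Nrf1, and 209341, 212755 and 210149 with Nrf2. The gene with the most reads was *Nppa* with LacZ and *Actc1* with each factor. The listed leukocyte marker *Cd3e*, which was not tested, had an authors' mean of 0 with LacZ and of 0.33 with Nrf2. Among the markers found with reads in each group, those with a mean under 10 were *C1qb* with each factor and *Rgs5* with Nrf1. In bulk RNA, fewer cells of a type and less RNA per cell cannot be told apart. The part of these marker shifts in the values of the 8 genes was not tested.

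**Figure D4:**
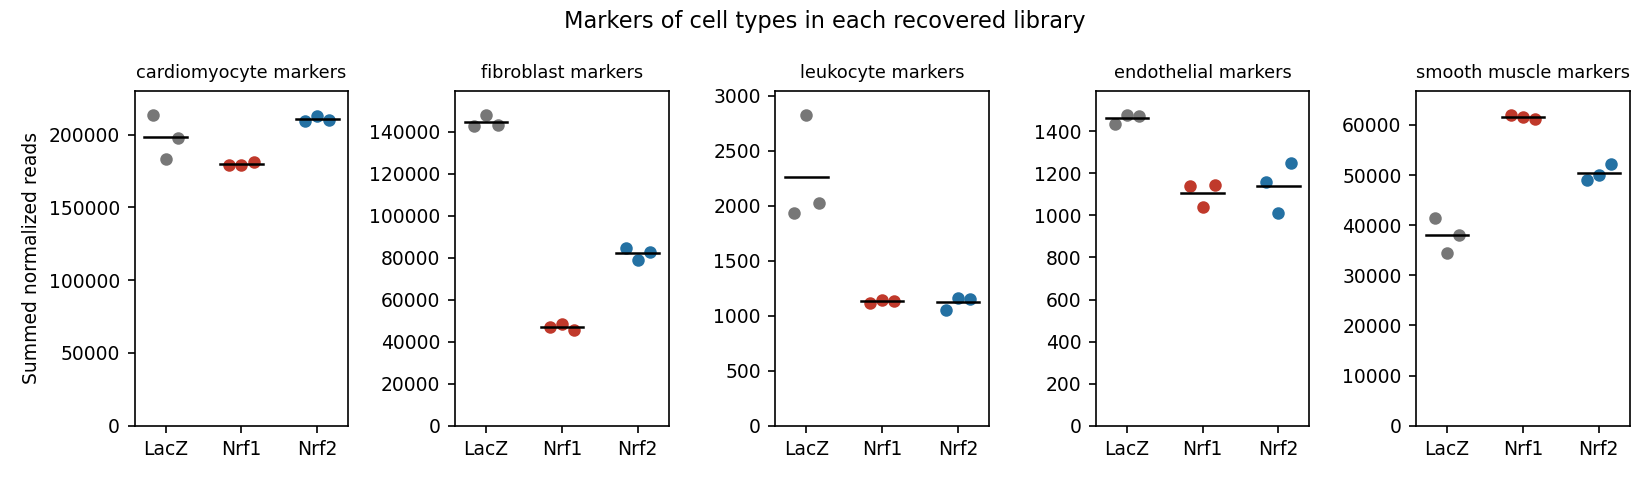
Summed normalized reads of markers of 5 cell types in each recovered library (vertical axes from 0, each with its own scale; points, 3 libraries per group from the deepest to the shallowest; lines, group means). Fibroblast sums lie between 142536 and 147701 reads with LacZ and between 45713 and 48279 with Nrf1.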

How the data were processed

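Libraries were stranded mRNA libraries of NRVMs, 3 per group, and groups were taken from the sample titles. The authors' methods name FastQC 0.11.4, HISAT2 2.0.4 (rat Rnor_6.0), removal of duplicate reads with SAMtools 0.1.18, featureCounts 1.6.0 and the GLM of edgeR 3.20.5. Removing duplicates from single-end reads can lower highly expressed genes. The signal values the authors deposited are group means of counts divided by size factors, computed per pair of groups. The columns of fold change, log2 fold change, p-value and adjusted p-value that the authors deposited were not used. The layout is that of another package, and which tool made it is not known here. Per-sample columns left unused numbered 0. In the tables with LacZ, 26 symbols are written as dates, and rows sharing a symbol (4 per table) were left out.

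The main values are ratios of the authors' means within a table, called past 1.5-fold. A mean is a sum of 3 whole read counts, each divided by 3 times a size factor, and each group has a mean in 2 tables. Solving both for whole reads resolved 14679 genes for LacZ, 14579 for Nrf1 and 14746 for Nrf2, all but *Fn1* with LacZ uniquely. Of means shifted by 5000 units of their last digit, 1 of 2068, 0 of 2035 and 1 of 2089 were resolved. Size factors recomputed from the reads differed by at most 0.00787%. Recovered reads are the result of this calculation and were not read from a count table. limma-voom (limma 3.58.1, R 4.3.3) was fitted to all 9 libraries with median-of-ratios size factors and genes over 1 CPM in at least 3 libraries, with Benjamini-Hochberg adjustment over 11592 genes. Normalized reads are recovered reads divided by these size factors. Recovery and fit were tested on simulated data. Python 3.11.15 was used for tables and matplotlib 3.10.9 for plots.

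The members and lists were chosen with earlier results of these data known. Named genes are the 8 members, the tested genes of highest and lowest ratio per list and list genes past 1.5-fold against LacZ. For members past that fold, the 5 genes nearest in both log2 ratios are named as well. Some genes that this rule names are not reported here. *Hsp90aa1* was singled out after its values were seen. Alternatives were other scalings, limma-trend, no filter, fits of 2 groups, leaving out each library, other folds and re-centring. No rat genome was used here, so no sequence is given and reads were not scaled by gene length.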

Additional observations from a re-analysis of the deposited data

How the results depend on the processing

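Of 120 alternatives to the limma-voom fold changes of the 8 genes by another scaling, limma-trend, no filter or a fit of 2 groups, 108 kept the direction and the side of the threshold, 7 lost the call and 4 gained one. Of 144 that left out a library, 129 kept both, 11 lost the call and 1 gained one. In the other 4 the value of *Ubqln4* for Nrf2 over Nrf1, 0.011 and not called, was below 0 and not called, at -0.0076 when scaled by total reads and -0.0068, -0.0040 and -0.0015 without the deepest Nrf1, middle Nrf2 and shallowest Nrf2 library (up to 0.048 over all libraries left out), and the cause was not tested. For Nrf1 against LacZ, a 2-fold threshold left 0 genes above, any ratio above 1 gave 7 and any below 1 gave 1, and limma-voom alone gave 7 and 1. For Nrf2 against LacZ, 2-fold gave 1 above, any ratio gave 7 above and 1 below, and limma-voom gave 7 above. Between Nrf2 and Nrf1, any ratio gave 2 above and 6 below, limma-voom 1 above and 5 below, and both 2-fold and re-centring gave 0 below. Genes lower by limma-voom with Nrf1 numbered 0 without the filter. Genes higher with Nrf2 numbered 3 when scaled by total reads, against 2602 of the 11592 genes tested. Genes lower with Nrf2 numbered 1 under that scaling, against 4208, and 1 under 75th-percentile scaling, against 3459. The causes of these shifts were not tested. Leaving out each library, a count added after seeing the data, gave 7 higher and 0 to 1 lower with Nrf1, 4 to 7 higher and 0 to 1 lower with Nrf2, and 1 higher and 5 lower for Nrf2 over Nrf1. Shares over all genes at 2-fold, at any ratio, after re-centring, without the filter or with a library left out are not given here. No paired analysis was possible because the group means carry no replicate numbers, so recovered libraries could not be matched to them. Genes with a mean of at least 100 that differed over 2-fold between libraries of a group numbered 20 with LacZ, 13 with Nrf1 and 15 with Nrf2, and none was among the 8. With 3 libraries per group, differences near 0.1 on the log2 scale were called or not depending on the setting.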

Other observations

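The authors' methods name removal of duplicate reads, which in single-end data leaves at most about 1 read per start position of a gene. The recovered reads were set beside the exon bases of the mouse gene of the same symbol (GENCODE M21), since no rat annotation was used here and lengths differ between the species. *Ubb* had at least 4891 reads in every library, against 1499 exon bases in mouse, and *Sqstm1* had up to 14013 reads, against 2823. Of 13097 genes matched by symbol, 923 had more reads in some library than exon bases. Whether duplicates had been removed from the reads behind these tables was not tested.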
